A study of Homo sapiens with 16 samples.

Results

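Tryptases are trypsin-like serine proteases, best known from mast cells, and their genes sit side by side on human chromosome 16. The 4 genes described here are TPSAB1, TPSB2, TPSD1 and TPSG1, taken by symbol from a table of 19898 genes. They were chosen because of their levels in untreated scaffold cultures set against untreated dishes, so that contrast is given below as a description and without a test. The cells were SH-SY5Y, a human neuroblastoma line, differentiated for 15 days into dopamine-like neurons. The study asked how the culture surroundings shape features of Parkinson's disease in them.

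All 16 libraries came from the same line and the same length of differentiation. The MPP-treated 3D group grew in a silk-collagen scaffold and received 1-methyl-4-phenylpyridinium (MPP) at 1 mM for 48 h from day 13. MPP is a mitochondrial poison of complex I that dopamine neurons take up. The untreated 3D group grew in the scaffold without the toxin. The MPP-treated 2D group received the same dose on culture dishes, and the untreated 2D group grew on dishes without it. Each group held 4 libraries of poly-A selected RNA. The labels do not say whether the 4 replicates were separate cultures, so p-values measure the spread between these libraries, which may be technical. Dish cells were detached with Accutase and pelleted, whereas scaffolds were frozen whole, so culture and handling cannot be told apart.

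Sequencing gave 36554574 to 38414859 reads per library for MPP-treated 3D and 24589435 to 34658873 for untreated 3D. Dish libraries had 30399672 to 41813620 reads with MPP and 34643854 to 46359070 without. The first principal component, with 35.89% of the variance, separated 3D from 2D, and the second, with 19.67%, separated MPP-treated from untreated libraries. On the fourth, with 5.784%, untreated 3D replicate 3 lay at 56.4, away from -29.6 to 4.32 in the other 3 libraries of its group. Results that rest on this library are given with and without it. Mitochondrially encoded mRNA made up 1.04 to 1.52% of reads in MPP-treated 3D, against 3.30 to 6.84% in untreated 3D, and likewise 0.791 to 0.949% in MPP-treated 2D, against 7.72 to 11.6% in untreated 2D. Its part in the results was not tested.

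Human mast cells store tryptases in secretory granules, where the enzymes are held as tetramers by heparin carried on the proteoglycan serglycin. TPSAB1 encodes alpha or beta tryptase, depending on the allele, and TPSB2 encodes beta tryptase, the main form in the granules. TPSD1 encodes delta tryptase, which ends early and has little protease activity. TPSG1 encodes gamma tryptase, which differs from the others in carrying a membrane anchor. Neurons are not a known main source of these enzymes.

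The genes lie together in the order TPSG1, TPSB2, TPSAB1, TPSD1, at these GRCh38 positions of GENCODE 29. TPSG1 (Entrez gene 25823) spans chr16:1221651-1225257 on the minus strand with 6 exons. TPSB2 (Entrez gene 64499) spans chr16:1227272-1230184 on the minus strand with 6 exons. TPSAB1 (Entrez gene 7177) spans chr16:1240696-1242554 on the plus strand with 6 exons. TPSD1 (Entrez gene 23430) spans chr16:1256059-1258998 on the plus strand with 5 exons.

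How alike these genes are limits what a short read can tell apart, and the following coding stretch shows it. Each line gives 120 coding bases, 5′ to 3′, from the GENCODE 29 transcript, bases 71 to 190 for TPSAB1 and TPSB2 and bases 92 to 211 for TPSD1, counted from the A of the start codon. Capitals mark bases that differ from the aligned TPSAB1 base.
TPSAB1: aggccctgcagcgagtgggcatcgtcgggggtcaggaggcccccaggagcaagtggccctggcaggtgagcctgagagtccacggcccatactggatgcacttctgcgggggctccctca
TPSB2: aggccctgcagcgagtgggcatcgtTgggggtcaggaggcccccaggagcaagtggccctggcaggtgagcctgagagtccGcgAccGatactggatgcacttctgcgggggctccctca
TPSD1: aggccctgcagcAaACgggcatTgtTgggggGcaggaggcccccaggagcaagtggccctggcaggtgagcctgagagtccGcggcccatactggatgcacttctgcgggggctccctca

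These 4 capitals in TPSB2 are the only differences in its 825 coding bases. They read C96T, A152G, G155A and C158G, with the TPSAB1 base first and positions counted from the A of the start codon. The coding sequences of TPSAB1 and TPSB2 were 99.52% identical. TPSD1 differed from TPSAB1 at 78 of 705 aligned coding bases, 88.94% identity, of which 7 fall in the stretch shown. The TPSD1 differences were unevenly spread: the 50-base bins that start at coding bases 501, 551 and 601 of TPSAB1 held 11, 15 and 18 of them. TPSG1 stood further apart, at 68.91% identity to TPSAB1 over 788 aligned bases, 69.16% to TPSB2 and 68.36% to TPSD1.

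With 1 reference transcript taken per gene, 40.99% of the 100-base windows of TPSAB1 occurred unchanged in none of the other 3. The share was 40.43% for TPSB2, 99.57% for TPSD1 and 100% for TPSG1. With 150-base windows it was 48.05% for TPSAB1, 47.54% for TPSB2 and 100% for TPSD1 and TPSG1. TPSD1 and TPSG1 were thus nearly always distinct by sequence at these lengths, whereas more than 1 in 2 windows of TPSAB1 and of TPSB2 were shared. The sources used here do not give how the submitters' counting treated reads that match more than 1 place. The separate values of TPSAB1 and TPSB2 are for that reason uncertain, and their sum is given beside them.

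In dish cultures no read of any of the 4 genes was counted. TPSAB1, TPSB2, TPSD1 and TPSG1 each had 0 reads in all 4 MPP-treated 2D libraries and in all 4 untreated 2D libraries, out of 309463756 reads in those 8 libraries together. A count of 0 allows up to 3 reads over the 4 libraries of a group, which is a normalised count of 0.684 in MPP-treated 2D and 0.689 in untreated 2D. A normalised count is the number of reads divided by the library's DESeq2 size factor. Of the 19898 genes of the table, 100 had no read in any 2D library (0.503%). An effect of MPP on these genes in the dish was not detectable at this depth.

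In the scaffold all 4 genes were read in all 8 libraries. TPSAB1 had normalised counts of 871, 894, 766 and 725 in MPP-treated 3D, against 1553, 1255, 1716 and 2069 in untreated 3D. TPSB2 had 824, 678, 787 and 736 in MPP-treated 3D, against 1253, 1205, 1474 and 1645 in untreated 3D. For both genes every MPP-treated 3D library lay below every untreated 3D library, and the untreated libraries were the more spread out. In bulk RNA, fewer cells that make a transcript and less of it per cell cannot be told apart, so these are averages over whole cultures.

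TPSD1 had normalised counts of 200.5, 136, 165 and 157 in MPP-treated 3D, against 203, 254, 602 and 413 in untreated 3D. These groups did not overlap, but the highest MPP-treated library and the lowest untreated one were nearly equal. Untreated 3D replicate 3, which stands apart on the fourth component, held the highest value. TPSG1 had 7.22, 3.57, 14.8 and 0.920 in MPP-treated 3D, against 32.7, 11.7, 50.5 and 41.8 in untreated 3D. Its groups overlapped. The recovered reads behind these TPSG1 values were 8, 4, 16 and 1 in MPP-treated 3D, against 31, 10, 36 and 28 in untreated 3D, 29 and 105 in all. The other genes rested on many more, with 3582 reads of TPSAB1, 3323 of TPSB2 and 723 of TPSD1 in MPP-treated 3D, against 5150, 4366 and 1114 in untreated 3D.

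**Figure D1:**
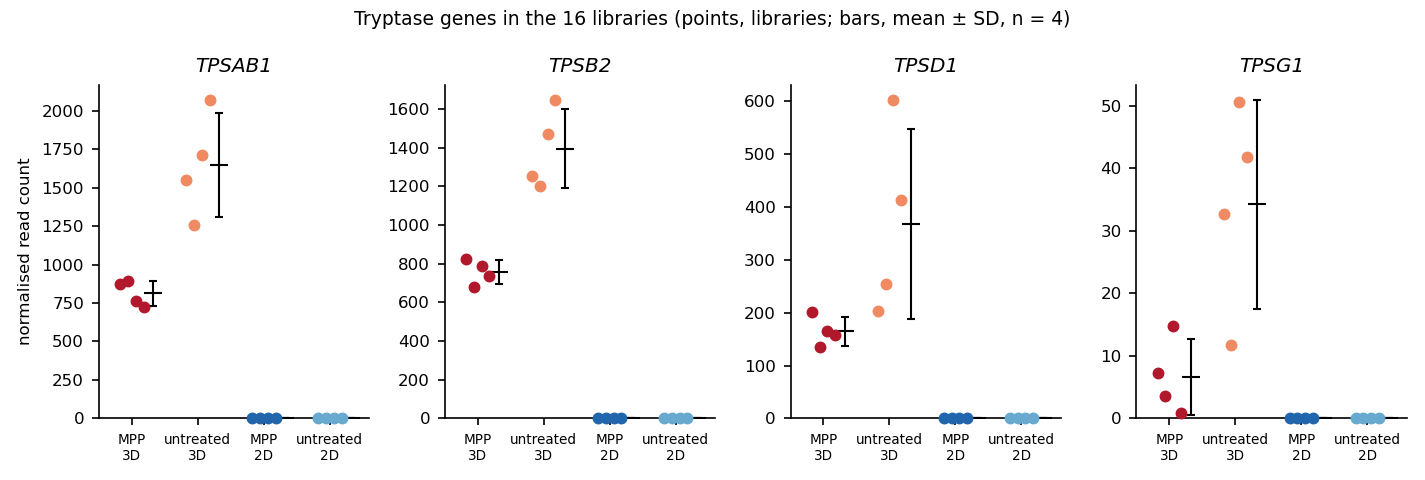
Normalised read counts of the 4 tryptase genes by group, 1 panel per gene, each on its own linear axis from 0; points are libraries and bars are mean ± SD over 4 libraries. The 8 libraries of 2D sit at 0 in every panel, and MPP-treated 3D lies below untreated 3D with overlap in TPSG1 alone.

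The mean of every tryptase gene was lower in MPP-treated 3D than in untreated 3D. TPSAB1 averaged 814 ± 81.6 in MPP-treated 3D and 1648 ± 339 in untreated 3D (SD, n = 4 each). TPSB2 averaged 757 ± 63.4 in MPP-treated 3D and 1394 ± 204 in untreated 3D.

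TPSD1 averaged 165 ± 26.9 in MPP-treated 3D and 368 ± 180 in untreated 3D. TPSG1 averaged 6.63 ± 6.04 in MPP-treated 3D and 34.2 ± 16.6 in untreated 3D. The coefficient of variation was 8.38% for TPSB2 and 16.4% for TPSD1 in MPP-treated 3D, against 14.6% for TPSB2 and 48.9% for TPSD1 in untreated 3D. For TPSG1 it ran the other way, at 91.0% in MPP-treated 3D against 48.7% in untreated 3D. Without MPP-treated 3D replicate 3 the MPP-treated mean of TPSG1 was 3.90, and the value per kilobase and the fold bound given for it below include that library. Without untreated 3D replicate 3 the untreated mean of TPSD1 was 290, and that of TPSAB1 1626.

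To set the genes against each other and against the rest of the transcriptome, normalised counts were divided by exon length. TPSAB1 then had 538 normalised counts per kilobase in MPP-treated 3D and 1090.1 in untreated 3D, above 81.9% and 91.8% of 15955 protein-coding genes in those groups. The median gene had 144 per kilobase in MPP-treated 3D and 145 in untreated 3D. TPSB2 had 435 per kilobase in MPP-treated 3D and 802 in untreated 3D, next below TPSAB1, with SDs of 36.5 and 53.9 for TPSB2 and TPSAB1 in MPP-treated 3D and 117 and 224 in untreated 3D. How reads were shared out between this pair is uncertain, and so is their order. Their place among all genes would come out too low if reads matching both were left uncounted. TPSD1 came next and lay near the middle of all genes, at 107 per kilobase in MPP-treated 3D and 240.1 in untreated 3D. TPSG1 was lowest, at 5.28 per kilobase in MPP-treated 3D and 27.2 in untreated 3D, above 14.8% and 26.1% of genes in the same groups.

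Against untreated dishes, which is the contrast the genes were chosen on, untreated scaffolds held at least 2348-fold more TPSAB1, at least 1990.2-fold more TPSB2, at least 508-fold more TPSD1 and at least 47.9-fold more TPSG1, with 3 reads over the 4 untreated 2D libraries as the floor. Among the 100 genes with no read in 2D, 19 reached a mean of 10 in untreated 3D (0.0955% of the table) and 3 reached a mean of 100 (0.0151% of the table). Those 3 were TPSAB1, TPSB2 and TPSD1. The next genes below them, named after their values were seen, were LOC100506178 at a mean of 76.9, the cytokine gene IL6 at 54.9 and the receptor genes GPR139 at 50.2 and HTR5A at 49.9. TPSG1 came ninth at 34.2. Nothing is read from these counts, since the genes were picked for them.

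The same culture contrast with MPP used 8 libraries outside the contrast that chose the genes. MPP-treated scaffolds held at least 1192-fold more TPSAB1 than MPP-treated dishes, at least 1106-fold more TPSB2, at least 241-fold more TPSD1 and at least 9.65-fold more TPSG1. With the filter on low values (10 or more in at least 4 libraries) all 4 genes could pass only through scaffold libraries, which fixes their direction, so no count of calls over them is used as support. With no filter, limma gave Benjamini-Hochberg adjusted p = 6.94e-17 for TPSAB1 and for TPSB2, 1.66e-12 for TPSD1 and 0.00317 for TPSG1. The table itself holds no gene with fewer than 11 reads over the 16 libraries, which these genes could reach only in the scaffold. Their direction was thus fixed without the filter too, and these p-values are a description. In the same comparison, with the filter and at an adjusted p under 0.05, 38.9% of all 16984 genes tested were called, 19.0% higher and 19.9% lower, and in 18.5% all 4 MPP-treated 3D libraries lay above all 4 MPP-treated 2D libraries, as they did for each tryptase gene. With the filter, TPSG1 stood at an adjusted p of 0.0511 with limma on the 2 groups alone and 0.0654 without MPP-treated 3D replicate 3, its highest library.

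Within the scaffold all 4 means were lower with MPP, and 3 of the 4 genes passed the limma threshold. The 4 untreated 3D libraries of this comparison are also those whose high values chose the genes, so its p-values are not independent of the choice and are given as a description. TPSAB1 fell by 1.00 on the log2(value + 1) scale (SE 0.27, 95% interval -1.56 to -0.43, limma adjusted p = 0.00656). TPSB2 fell by 0.87 (SE 0.27, 95% interval -1.44 to -0.31, limma adjusted p = 0.0156). TPSG1 fell by 2.42 (SE 0.80, 95% interval -4.08 to -0.76, limma adjusted p = 0.0219). It reached 10 in all 4 untreated 3D libraries and in 1 MPP-treated 3D library, so it passed the filter through the group where it was higher. TPSD1 had a log2 change of -1.04 (SE 0.41, 95% interval -1.90 to -0.18) and missed the threshold, at a limma adjusted p of 0.0547. Of all genes tested, 34.6% were called in this comparison, 17.6% lower and 17.0% higher, and in 14.1% all 4 MPP-treated 3D libraries lay below all 4 untreated 3D libraries.

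The size of the change stayed close across methods, while the call on TPSD1 moved with the libraries and the model. With the 8 scaffold libraries alone, limma gave adjusted p = 6.25e-05 for TPSAB1, 6.01e-05 for TPSB2, 0.0101 for TPSD1 and 0.0149 for TPSG1. On the recovered reads, edgeR gave changes of -1.01 for TPSAB1 (adjusted p = 2.73e-05), -0.88 for TPSB2 (2.99e-05), -1.15 for TPSD1 (0.00513) and -2.34 for TPSG1 (0.0204). DESeq2 gave -1.02 for TPSAB1 (adjusted p = 6.31e-11), -0.88 for TPSB2 (1.28e-10), -1.16 for TPSD1 (0.000409) and -2.36 for TPSG1 (0.0117). Without untreated 3D replicate 3 the TPSD1 change was -0.76, with a limma adjusted p of 0.219 over all groups and 0.0264 over the 2 groups alone. An exact permutation test on the normalised counts, two-sided, gave p = 0.0286 for TPSAB1, TPSB2 and TPSD1, the smallest that 4 against 4 can give, and p = 0.0571 for TPSG1.

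The TPSB2 call was lost when 1 of 3 libraries was left out of the limma fit of all groups: MPP-treated 3D replicate 2 (adjusted p = 0.0631), or replicate 3 (0.0531) or 4 (0.0697) of untreated 3D. TPSG1 lost its call in 5 of the fits that left out 1 library, those without untreated 3D replicate 1, 3 or 4 or without MPP-treated 3D replicate 2 or 4, at limma adjusted p from 0.0530 to 0.0837. TPSD1 passed the threshold when untreated 3D replicate 1 or any single 2D library was left out, at limma adjusted p from 0.0375 to 0.0498. TPSAB1 kept its call in every fit that left out 1 library, at 0.0417 or less.

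With the reads of TPSAB1 and TPSB2 added up, the way counted reads were split between them no longer matters. The sum fell by 0.94 on the log2 scale in MPP-treated 3D (SE 0.24, limma adjusted p = 0.00357). Any reads left uncounted because they match both genes would be missing from the sum too. TPSAB1 held 51.4, 56.9, 49.3 and 49.6% of the reads of the pair in the 4 MPP-treated 3D libraries, and 55.3, 51.0, 53.8 and 55.7% in the 4 untreated 3D libraries. The exact 95% binomial interval of the first MPP-treated library ran from 49.1 to 53.7% on 1878 reads, which is counting error only. The share averaged 51.8 ± 3.50% in MPP-treated 3D and 54.0 ± 2.13% in untreated 3D (SD, n = 4 each), a difference of -2.17 percentage points with exact permutation p = 0.343. That difference was within the spread between libraries.

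TPSD1 made up 10.5, 7.92, 9.51 and 9.72% of the reads of the 4 genes in MPP-treated 3D, and 6.66, 9.31, 15.7 and 9.91% in untreated 3D. The untreated 3D range enclosed the MPP-treated 3D range, and its highest value was again replicate 3. TPSG1 never exceeded 1.31% of the reads of the 4 genes in a library. Shares of TPSD1 and TPSG1 would come out too high if reads matching both TPSAB1 and TPSB2 were left uncounted.

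The 4 genes lie in 1 cluster, and the gene beside it, CACNA1H, differed between the groups too. CACNA1H encodes a T-type calcium channel and overlaps the end of TPSG1 by 122 bases on the opposite strand. The sources used here do not say whether counting used strand, so reads in that overlap cannot be told apart. CACNA1H had normalised counts of 63.2, 45.5, 53.7 and 72.7 in MPP-treated 3D and 752, 714, 1107 and 698 in untreated 3D, and fell by 3.77 on the log2 scale (SE 0.34, limma adjusted p = 1.19e-08). It had 32.3, 27.0, 12.2 and 29.9 in MPP-treated 2D and 3.45, 2.06, 6.28 and 2.12 in untreated 2D. Unlike the tryptase genes, CACNA1H was therefore read in every dish library, though its untreated 2D values were near the floor. It was 7.58 higher on the log2 scale in untreated 3D than in untreated 2D (SE 0.34, limma adjusted p = 3.02e-14).

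Of the 10 protein-coding genes listed on each side of the tryptase genes, 13 of 20 were in the table and 12 were tested. With MPP in the scaffold 2 of them were called higher and 3 lower, CACNA1H included, beside 34.6% of all genes called in either direction. In MPP-treated 3D against MPP-treated 2D 5 were called higher and 1 lower, beside 38.9% of all genes. GNG13 was 1 of the 3 lower with MPP in the scaffold (log2 change -2.35, SE 0.58, limma adjusted p = 0.00299). It averaged 16.8 ± 11.4 in MPP-treated 3D and 75.3 ± 34.9 in untreated 3D, against 7.94 in MPP-treated 2D and 12.1 in untreated 2D. CACNA1H was 1.25 higher on the log2 scale in MPP-treated 3D than in MPP-treated 2D (SE 0.34, limma adjusted p = 0.00526). Leaving CACNA1H aside, the tested neighbours lay between -0.59 and 1.09 in MPP-treated 3D over MPP-treated 2D, against fitted values of 9.67 for TPSAB1, 9.56 for TPSB2, 7.36 for TPSD1 and 2.54 for TPSG1 on the same log2(value + 1) scale. These fitted tryptase values depend on the added 1, since the dish libraries are at 0, and serve only to place the genes on the scale.

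**Figure D2:**
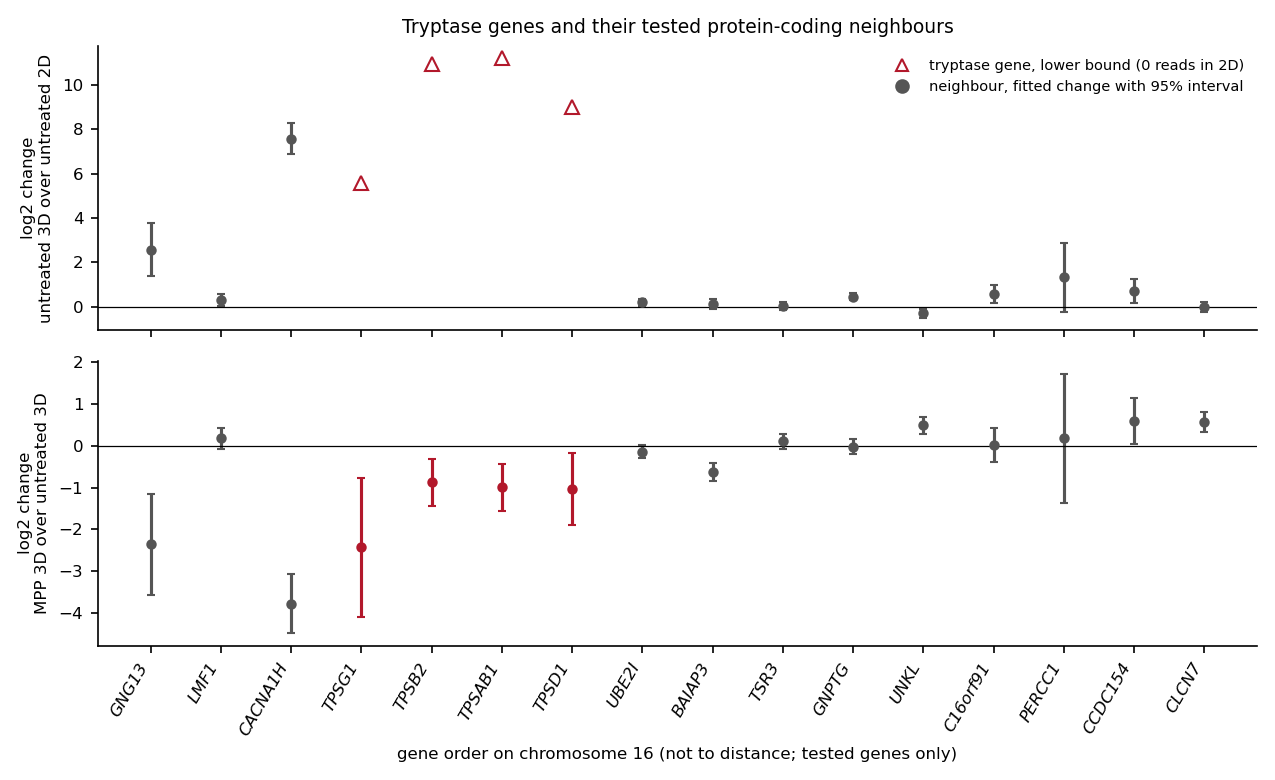
Log2 changes of the tryptase genes (red) and their tested protein-coding neighbours (grey) in gene order along chromosome 16, untreated 3D over untreated 2D above and MPP-treated 3D over untreated 3D below; circles are limma estimates with 95% intervals and open triangles are lower bounds against 3 reads. CACNA1H, beside TPSG1, is the neighbour farthest from 0 in both panels, at 7.58 and -3.77.

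Only the TPSG1 promoter was in the RefSeq promoter table, and it is shown because the 4 genes appeared together. It runs from 250 bases before to 50 after the start, chr16:1225219-1225518 of GRCh38.p14 on the minus strand, 5′ to 3′, and capitals mark GATAA, the core letters read by GATA factors.
TPSG1: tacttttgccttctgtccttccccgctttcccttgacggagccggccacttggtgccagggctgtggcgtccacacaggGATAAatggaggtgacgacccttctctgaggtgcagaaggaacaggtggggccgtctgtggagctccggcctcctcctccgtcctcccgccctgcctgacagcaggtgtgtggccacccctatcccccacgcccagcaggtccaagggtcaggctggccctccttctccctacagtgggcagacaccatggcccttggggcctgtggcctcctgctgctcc

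GATAA occurred at 1 place, and 22.74% of 35116 promoters of the same length held it on either strand. The E-box letters CANNTG occurred at 3 places and in 68.68% of promoters. ACGTG (in 21.41% of promoters) and TATAA (in 20.44%) did not occur in this window on either strand. None of these motifs overlapped GATAA.

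Because tryptase is a mast cell product, its levels are set beside the genes that define mast cells. Of 14 listed, 6 were in the table, and CPA3, MS4A2, FCER1A, CTSG, MRGPRX2, SIGLEC6, SIGLEC8 and IL1RL1 are not analysed here. KIT, the stem cell factor receptor, averaged 285 ± 24.9 in MPP-treated 3D and 228 ± 35.5 in untreated 3D, close to the 246 ± 20.7 of MPP-treated 2D and the 278 ± 49.3 of untreated 2D (SD, n = 4 each), where no tryptase read was counted. CMA1, which encodes mast cell chymase, averaged 12.2 ± 6.82 in MPP-treated 3D, 8.30 ± 4.60 in untreated 3D, 9.27 ± 2.46 in MPP-treated 2D and 6.70 ± 4.84 in untreated 2D. KIT and CMA1 passed the limma test in neither scaffold comparison.

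The other 4 mast cell genes differed in level. ENPP3 had 0 reads in MPP-treated 3D and averaged 3.09 in untreated 3D, 1.67 in MPP-treated 2D and 0.393 in untreated 2D. HPGDS, a prostaglandin D synthase gene, had 0 reads in untreated 3D. It averaged 0.230 in MPP-treated 3D, 1.36 in MPP-treated 2D and 3.91 in untreated 2D. HDC, the histamine-forming enzyme, averaged 0.446 in MPP-treated 3D and 2.68 in untreated 3D, against 0 in MPP-treated 2D and 3.02 in untreated 2D. ENPP3, HPGDS and HDC were too low to be tested. RGS13, a regulator of G protein signalling, was the 1 gene of the 3 tested that was called with MPP in the scaffold, at 0.926 ± 1.85 in MPP-treated 3D and 22.8 ± 6.02 in untreated 3D (log2 change -3.97, SE 0.56, limma adjusted p = 9.07e-06). It was read in dishes too, at 15.9 ± 6.76 in MPP-treated 2D and 32.7 ± 12.2 in untreated 2D. Unlike the tryptase genes, RGS13 was lower in MPP-treated 3D than in MPP-treated 2D (log2 change -3.43, SE 0.56, limma adjusted p = 4.10e-05).

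The summed level of the 6 genes ranged over 282 to 329 (MPP-treated 3D), 228 to 293 (untreated 3D), 245 to 315 (MPP-treated 2D) and 278 to 419 (untreated 2D), and these ranges overlapped between scaffold and dish. KIT alone ranged over 259 to 315, 183 to 264, 226 to 269 and 232 to 347 in the same order of groups. KIT gave most of each sum, so the overlap mostly repeats that of KIT. PRG2 and EPX, the 2 tested genes of basophils and eosinophils, were called in neither scaffold comparison. PRG2 averaged 25.1 in MPP-treated 3D and 40.3 in untreated 3D, against 13.2 in MPP-treated 2D and 13.7 in untreated 2D. EPX averaged 160, 105, 108 and 76.8 in the same order of groups. Their limma adjusted p in MPP-treated 3D against MPP-treated 2D was 0.0905 and 0.0805, and EPX stood at 0.0507 with MPP in the scaffold. They summed to 150 to 221, 107 to 176, 101 to 133 and 68.9 to 129, without overlap between 3D and 2D with MPP. PTPRC, which encodes the leukocyte antigen CD45, averaged 0.446 in MPP-treated 3D and had 0 reads in untreated 3D. The other pan-leukocyte genes did not move as one. ITGB2, an integrin gene, averaged 164 ± 47.4 in MPP-treated 3D and 55.7 ± 21.0 in MPP-treated 2D, and was higher in MPP-treated 3D (log2 change 1.55, SE 0.27, limma adjusted p = 9.25e-05). Without MPP it averaged 142 in 3D and ranged over 12.1 to 18.8 in 2D. LAPTM5, a lysosomal membrane protein gene, averaged 35.5 ± 2.88 in MPP-treated 3D and 39.4 ± 5.95 in untreated 3D, against 18.7 ± 5.74 in MPP-treated 2D and 16.5 ± 8.37 in untreated 2D, and was not called in MPP-treated 3D against MPP-treated 2D (limma adjusted p = 0.0852). It was called higher in untreated 3D than in untreated 2D (log2 change 1.41, SE 0.42, limma adjusted p = 0.00924). CORO1A went the other way, at 311 ± 40.9 in MPP-treated 3D and 649 ± 44.6 in MPP-treated 2D. The median summed level of 8 pan-leukocyte genes, to which CORO1A and LCP1 gave the most in dishes, was 675 in MPP-treated 3D and 966 in untreated 3D, below the 1185 of MPP-treated 2D and the 1521 of untreated 2D. The markers of the line itself were read beside tryptase, with TH, the rate-limiting enzyme of dopamine synthesis, at 4241 ± 237 in MPP-treated 3D and 5585 ± 823 in untreated 3D.

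**Figure D3:**
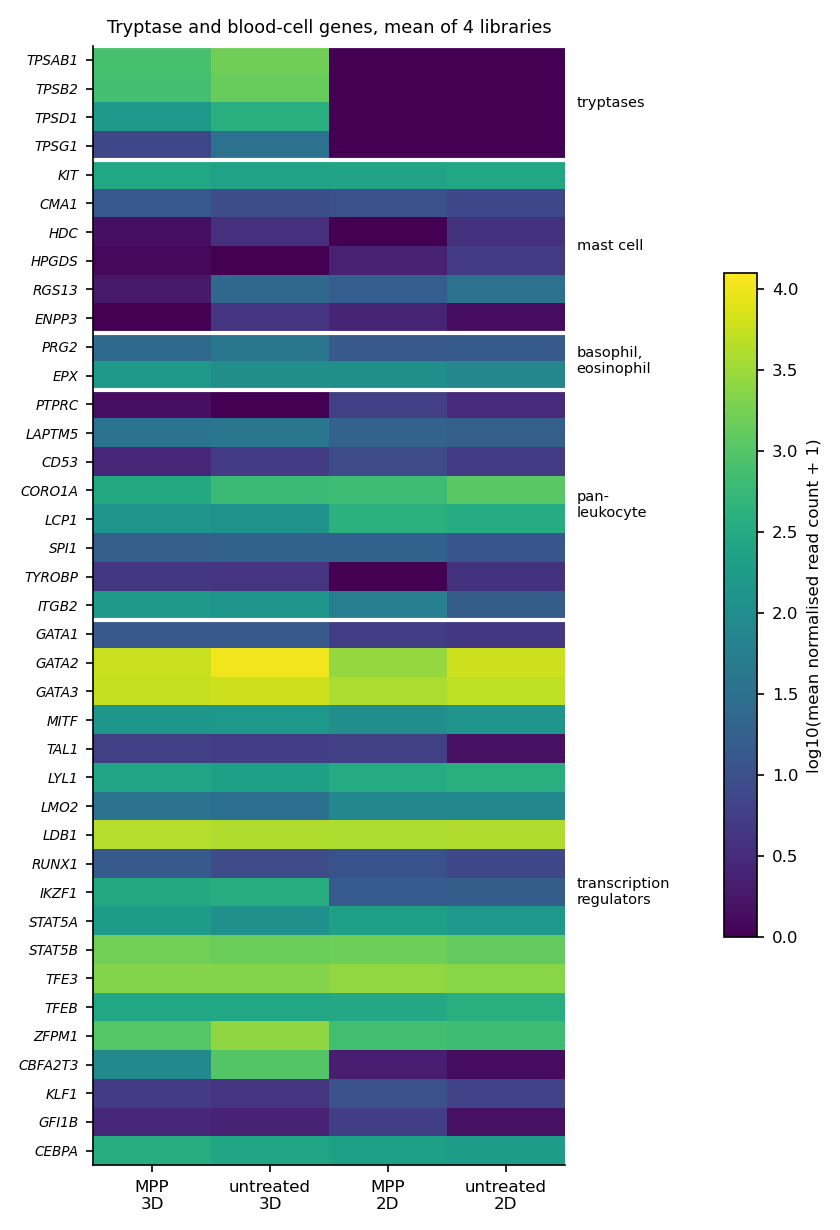
Mean normalised read count of 4 libraries, as log10(mean + 1), for the tryptase genes and for the mast cell, basophil and eosinophil, leukocyte and regulator genes in the table, with the 4 groups in columns; SPI1, on both lists, is drawn once. The tryptase rows are dark in both 2D columns, whereas KIT, at 285, 228, 246 and 278, is alike in all 4.

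Of the transcription regulators of mast cells and other blood cells, most were read in every dish library, but GATA1, TAL1, CBFA2T3 and GFI1B were at 0 in some. All 20 listed were in the table and 17 were tested. Comparing MPP-treated 3D with MPP-treated 2D, 6 were called higher and 2 lower, beside 19.0% and 19.9% of all genes, with a list median of 0.45 against 0.01 over all genes. With MPP in the scaffold, 1 was called higher and 3 lower, beside 17.0% and 17.6% of all genes, with a list median of -0.01 against 0.00 over all genes.

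GATA2, a zinc finger factor that mast cells need, had normalised counts of 3949, 6470, 7413 and 6077 in MPP-treated 3D and 10261, 9757, 9510 and 11832 in untreated 3D. It fell by 0.82 with MPP in the scaffold (SE 0.13, limma adjusted p = 2.40e-05). GATA2 was also high in dishes without any tryptase read, at 2790 ± 230 in MPP-treated 2D and 6122 ± 279 in untreated 2D. CBFA2T3, which encodes a corepressor of the ETO family, was nearly unread in dishes, as the tryptase genes were. It had 91.2, 84.8, 100.01 and 81.0 in MPP-treated 3D and 1031, 980.4, 1039 and 920.3 in untreated 3D, and fell by 3.46 (SE 0.50, limma adjusted p = 1.21e-05). It was at 4.85 in 1 MPP-treated 2D library and 1.57 in 1 untreated 2D library, and at 0 in the other 6. IKZF1, which encodes the lymphoid factor Ikaros, averaged 314 ± 29.3 in MPP-treated 3D and 356 ± 51.5 in untreated 3D, against 13.9 ± 10.4 in MPP-treated 2D and 15.0 ± 4.94 in untreated 2D.

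The partners of tryptase in the granule were described in the same way. Of the genes that make heparin and heparan sulfate, 14 of 16 listed were tested, and SRGN, the serglycin gene, and HS3ST1 are not analysed here. With MPP in the scaffold 2 were called higher and 5 lower, beside 34.6% of all genes called in either direction. In MPP-treated 3D against MPP-treated 2D 3 were called higher and 6 lower, beside 38.9% of all genes. NDST2, the sulfotransferase that mast cell heparin needs in mice, averaged 1695 ± 50.9 in MPP-treated 3D, 1834 ± 173 in untreated 3D, 1603 ± 128 in MPP-treated 2D and 1560 ± 28.6 in untreated 2D. CTSC, a cathepsin that trims the tryptase precursor, averaged 391 ± 29.2 in MPP-treated 3D and 287 ± 19.0 in MPP-treated 2D and was 0.45 higher on the log2 scale (SE 0.13, limma adjusted p = 0.0103). Of the 3 listed processing proteases, CTSC, CTSL and CTSB, 2 were called higher and 0 lower in that comparison, beside 38.9% of all genes. With MPP in the scaffold CTSL was called higher and CTSB lower, beside 34.6%. The CTSB call was lost with equal library totals (limma adjusted p = 0.144).

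Of 13 listed substrates, receptors and inhibitors of tryptase, 5 were tested, and 4 were called lower in MPP-treated 3D than in MPP-treated 2D, beside 19.9% of all genes. VIP, a neuropeptide that tryptase cleaves, averaged 218 ± 32.5 in MPP-treated 3D and 1533 ± 142 in MPP-treated 2D (log2 change -2.82, SE 0.13, limma adjusted p = 1.38e-13). F2RL1, the protease-activated receptor that tryptase can cut, averaged 147 ± 22.8 in MPP-treated 3D and 208 ± 36.6 in MPP-treated 2D (log2 change -0.49, SE 0.17, limma adjusted p = 0.0284). The F2RL1 call was lost with quantile normalisation (adjusted p = 0.0557) and when any of 6 single MPP-treated libraries was left out (0.0556 to 0.0966).

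Other trypsin-like proteases were called about as often as all genes. Of 72 listed, 50 were in the table and 37 were tested. Comparing MPP-treated 3D with MPP-treated 2D, 8 were called higher and 7 lower, beside 38.9% of all genes called in either direction, and with MPP in the scaffold 7 were called higher and 7 lower, beside 34.6%. The list medians were 0.24 and 0.14 on the log2 scale, against 0.01 and 0.00 over all genes. PRSS56, a secreted protease known from the eye, was among the 8 called higher, at 47947 ± 6330 in MPP-treated 3D and 4082 ± 738 in MPP-treated 2D (log2 change 3.56, SE 0.13, limma adjusted p = 4.18e-15). It fell by 0.53 with MPP in the scaffold (SE 0.13, adjusted p = 0.00341), where it averaged 70325 ± 15666 without the toxin.

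The genes whose levels most resembled TPSAB1 over the 16 libraries were sought by Pearson's r of log2(value + 1) among the 14029 genes whose mean reached 50. TPSB2, left out of the ranking for its shared sequence, had r = 0.9998. The 10 highest were TPSD1 (r = 0.997), TLE2 (0.994), LOC401040 (0.993), CGA (0.990), PCSK6 (0.989), CHRND (0.988), TMEM63B (0.986), PDE11A (0.985), TLE1 (0.985) and TH (0.984). The libraries share groups and depth, so these values are a description, and they mostly record the split between scaffold and dish.

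Over the 8 scaffold libraries alone the picture was more uneven. CHRND, a muscle-type acetylcholine receptor subunit gene, had r = 0.955 with TPSAB1, TMEM63B 0.936, the corepressor gene TLE2 0.927, TH 0.886 and TPSD1 0.821. CGA, the shared alpha subunit of glycoprotein hormones, had r = -0.643, and PDE11A -0.118. CHRND averaged 12655 ± 896 in MPP-treated 3D and 19510 ± 1303 in untreated 3D, against 1533 ± 156 in MPP-treated 2D and 924 ± 116 in untreated 2D. The 9 genes of the ranking other than TPSD1 were all read in dishes.

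**Figure D4:**
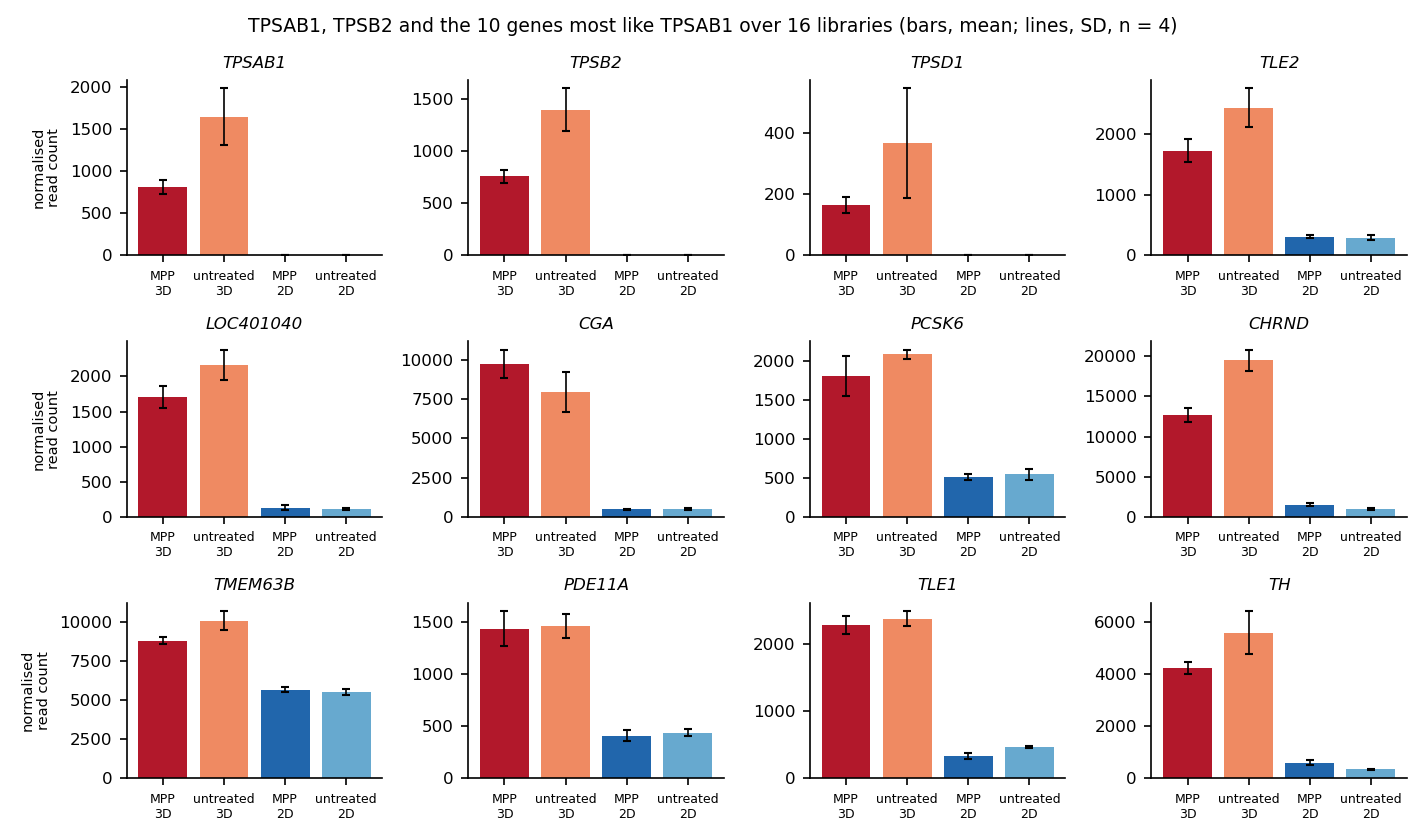
Mean normalised read count by group for TPSAB1, TPSB2 and the 10 genes of highest correlation with TPSAB1, each on its own linear axis from 0; bars are means and lines SD over 4 libraries. All 12 genes are higher in the 2 scaffold groups, and TPSAB1, TPSB2 and TPSD1 are at 0 in both dish groups.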

How the data were processed

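RNA was sequenced in 16 libraries, 4 per group, grouped by sample title. The deposited signal is a read count scaled by each library's size factor. Per the submitters' processing notes, the authors' tools were CASAVA 1.8.2, FastQC, STAR, featureCounts and DESeq2, with build GRCh38.p13. The sources used here give no settings. All values (100% within 0.01 reads) were whole multiples of 1 step per library, so whole reads were recovered. The table's lowest gene had 11 reads summed over all libraries, and rarer genes are not analysed here.

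The main test was limma 3.58.1 (R 4.3.3) with a trend on log2(value + 1), for the 16984 genes that reached 10 in 4 libraries, in 1 fit of the 4 groups, with Benjamini-Hochberg adjustment over all genes and a threshold of 0.05. limma had been set for normalised values and was kept once reads were recovered. On this scale the changes of low genes are understated. edgeR 4.0.16 and DESeq2 1.42.0 on recovered reads were alternatives, as were other scalings, pseudocounts of 0.5 and 5, other filters, a replicate block and leaving out each library. A floor of 3 reads over a group's 4 libraries served for groups at 0. Floors and intervals are for counting error only.

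No 2 libraries of a group were alike within sampling noise (chi-square per degree of freedom of 6.43 or more over 24 pairs). Positions and sequences came from GENCODE 29 and, for the promoter, RefSeq. Named genes were the tryptase genes, listed genes that define mast cells or were among the 4 largest called changes of a list, the nearest protein-coding neighbours, and the 10 genes most like TPSAB1; other genes were named after their values were seen, to show a list's range. The tryptase genes and all lists were chosen with earlier results of these data known. A gene among the line's markers is not reported here.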

Additional observations from a re-analysis of the deposited data

Results flagged for a closer look

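CACNA1H in untreated 3D had a library at 1107, replicate 3, far from the other 3 at 698 to 752; chance alone would mark about 1 in 20 groups of 4 in this way. For CACNA1H every MPP-treated library lay below every untreated one in the scaffold and above every untreated one in the dish. Its log2 changes were -3.77 in 3D and 2.57 in 2D. The same held for BAIAP3 (-0.63 in 3D and 0.10 in 2D), TH (-0.39 in 3D and 0.79 in 2D) and XYLT1, a heparan sulfate linker gene (-0.25 in 3D and 0.34 in 2D). The BAIAP3 change in 2D was not called (limma adjusted p = 0.487). The differences between the 3D and 2D changes of these 4 genes were not tested.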

How the results depend on the processing

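No result for the tryptase genes reversed under any alternative, and counts of called genes stayed within 1.5 times the main ones. TPSD1 with MPP in 3D passed the threshold with a pseudocount of 5 (-1.02, adjusted p = 0.00882), with only the 2 groups compared (-1.04), with edgeR (-1.15, adjusted p = 0.00513), with edgeR and the replicate block (-1.05), with DESeq2 (-1.16) and, chosen after seeing the data, with the 2 groups without untreated 3D replicate 3 (-0.76). Leaving out 1 library moved its change between -1.28 and -0.76, TPSB2 between -0.94 and -0.79 and TPSG1 between -2.91 and -1.89. TPSG1 with MPP in 3D missed the threshold with a pseudocount of 0.5 (-2.58, adjusted p = 0.0545). TPSG1 in MPP-treated 3D over MPP-treated 2D missed it with a pseudocount of 5 (1.07) and with only the 2 groups compared (2.54), a fit that never held untreated 3D replicate 3, and leave-one-out values ran from 2.06 to 3.07. The cause was not tested.

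Replicate numbers showed no clear pairing of the samples: same-numbered libraries correlated at -0.1145 to 0.0896. With the replicate block, limma called 5706 genes with MPP in 3D, against 5879 without it, and gave adjusted p = 0.0125 for TPSAB1, 0.0258 for TPSB2, 0.0721 for TPSD1 and 0.0295 for TPSG1. Libraries correlated best with their own number in 2 of 4 cases in that comparison. The count was 3 of 4 for MPP-treated 3D against MPP-treated 2D. It was 1 of 4 for MPP-treated 2D against untreated 2D and 0 of 4 for untreated 3D against untreated 2D. Of 115 results on other named genes, 96 kept their direction and side of the threshold everywhere and 0 reversed. TPSG1, on 29 reads in MPP-treated 3D, is limited by depth.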
